A study of Mus musculus with 16 samples.

Results

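The genes described here encode the alpha chains of the collagens, the trimeric proteins that give extracellular matrix its fibres and sheets. They are the rows of the deposited count table whose symbol is Col, a type number, the letter a and a chain number, and they are 43 of its 23284 gene symbols. By the structural class of their products, 11 are fibrillar, 6 belong to the type IV collagens of basement membranes and 4 are transmembrane. A further 6 are chains of microfibrillar type VI collagen, 9 are FACITs (fibril-associated collagens with interrupted triple helices), 2 are multiplexins (types XV and XVIII), 3 form networks (types VIII and X), 1 forms anchoring fibrils (type VII), and Col28a1 was put in no class. Col26a1 stands in the table under its older symbol Emid2, which the rule did not match.

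RNA was sequenced from the lumbar spinal cord of mice aged 150 days, in 4 groups of 4 animals that the design text calls biological replicates. The groups were Atg7 cWT (called cWT here), Atg7 cKO (cKO), Atg7 cWT; SOD1G93A (cWT_SOD1) and Atg7 cKO; SOD1G93A (cKO_SOD1), where cKO is read as conditional knockout and cWT as its wild-type counterpart. Atg7 encodes an enzyme needed to form autophagosomes, and SOD1G93A mice carry a human SOD1 gene with a mutation found in familial amyotrophic lateral sclerosis. The title places the inhibition of autophagy in motor neurons, but the sources used here do not name the driver of the Cre or the alleles that the cWT animals carry.

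Collagen chains are assembled into triple helices in the endoplasmic reticulum after hydroxylation of proline and lysine. Fibrillar chains are secreted with propeptides, trimmed and cross-linked into fibres. Type IV chains join into a sheet-like network under endothelium, pia and glial endfeet, and transmembrane collagens span the plasma membrane and can be shed from it. In the healthy spinal cord, fibrillar collagen is found mainly in meninges, nerve roots and the walls of larger vessels rather than in the neural tissue itself. The comparisons ask how these genes differ with the transgene, with the cKO genotype and with both.

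Library totals ran from 14989026 to 20892530 counts, and 41 of the 43 genes had enough counts for testing among 15426 tested genes. The other 2 were Col10a1 and Col17a1, with at most 3 and 8 counts in any library. Levels within a gene are given as CPM (counts scaled to library size after TMM normalisation), and levels are set against each other between genes as FPKM, which also divides by transcript length. Counts over the whole of Atg7 came to 31.4 ± 2.51 CPM in cWT and 27.97 ± 1.06 in cKO (SD, n = 4). The cKO difference passed the test neither without the transgene (log2 fold change -0.17, SE 0.12, edgeR adjusted p = 1) nor with it (log2 fold change 0.17, SE 0.12, edgeR adjusted p = 0.22). The sources used here do not say which exons the cKO allele lacks, and the whole cord holds many cell types, so these counts do not check the genotype labels. For the same reason, fewer cells of a type and less RNA per cell cannot be told apart in any value below.

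Most collagen chain genes were higher in transgenic cords with intact Atg7. Between cWT_SOD1 and cWT, 28 of the 41 tested genes rose and 2 fell at an edgeR adjusted p under 0.05, where 33.2% of all tested genes rose and 33.1% fell. The median log2 fold change was 0.87 over the collagens and 0.01 over all tested genes. In 24 of the 41, every cWT_SOD1 library lay above every cWT library, and in 2 every one lay below, against 27.6% and 29% of all tested genes.

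With Atg7 cKO the same transgene went with far fewer calls. Between cKO_SOD1 and cKO, 6 collagen genes rose and 0 fell, beside 4.8% and 2.48% of all tested genes (7.28% in either direction). The 6 were Col5a3, Col12a1, Col16a1, Col27a1, Col4a5 and Col11a2. At an unadjusted p under 0.05 there were 14 higher and 0 lower, and the median log2 fold change was 0.22. The share of all tested genes at this unadjusted cutoff was not taken. Unadjusted counts, here and below, therefore have no background beside them. Groups of 4 libraries did not overlap for 8 genes, all higher in cKO_SOD1, against 9.91% of all tested genes higher and 11% lower. The number of calls moved with single libraries: without cKO replicates 1, 2 or 4 it was 3, 3 and 2, and without cKO_SOD1 replicates 2 or 3 it was 2 and 3.

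The cKO genotype without the transgene moved no collagen gene past the threshold. Between cKO and cWT, edgeR called 0 of 41, where 0.00648% of all tested genes were higher, 0.0194% lower and 0.0259% called in either direction. DESeq2, limma-voom and limma on FPKM also called 0, and 2 genes were higher and 1 lower at an unadjusted p under 0.05 in edgeR. No collagen gene had groups of 4 libraries that did not overlap in this comparison, against 1.54% of all tested genes above and 1.93% below.

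With the transgene, the cKO cords had lower collagen levels. Between cKO_SOD1 and cWT_SOD1, 24 of 41 fell and 2 rose (Col25a1 and Col11a2), where 29.1% of all tested genes fell and 29.1% rose (58.2% in either direction). The median log2 fold change was -0.49, and every cKO_SOD1 library lay below every cWT_SOD1 library for 16 genes and above for 3, against 24.1% and 25% of all tested genes. The interaction, which tests whether the transgene effect differs between cKO and cWT, was called for 22 of 41. It was negative for 19 and positive for 3, beside 21.8% and 23.2% of all tested genes (45% in either direction). These comparisons share libraries with the ones above (the cWT_SOD1 group enters both), so their counts are not separate evidence.

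**Figure D1:**
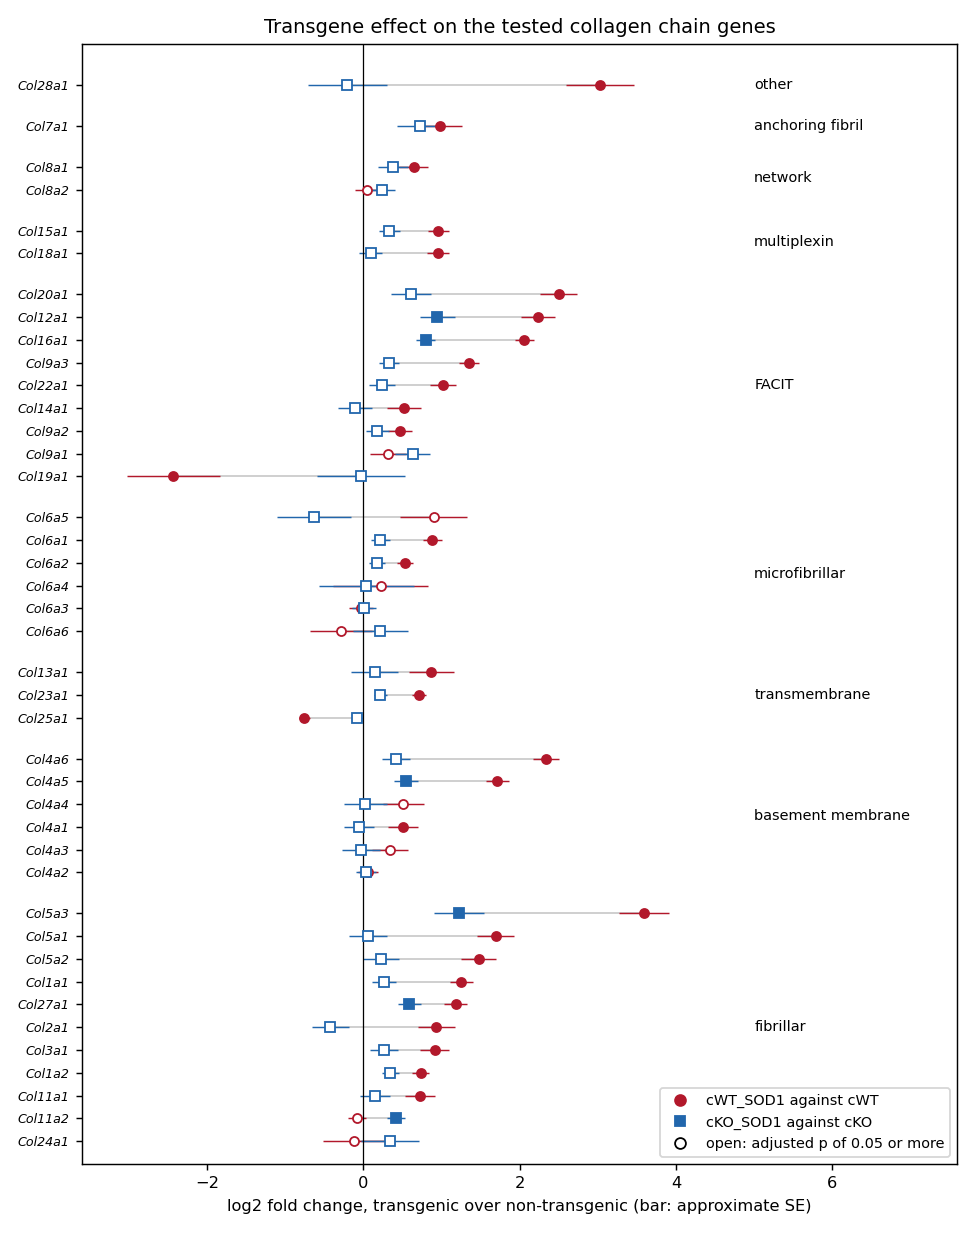
The log2 fold change of each tested collagen chain gene between transgenic and non-transgenic cords (x axis) is drawn by class, red circles with intact Atg7 and blue squares with Atg7 cKO, with bars of 1 approximate SE and filled marks where the edgeR adjusted p was under 0.05. Red marks lie right of 0 for 35 of the 41 genes, with 28 filled, and 6 blue marks are filled.

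The fibrillar chains rose as a group in transgenic cords with intact Atg7, led by type V. Of 11 tested, 9 rose and 0 fell between cWT_SOD1 and cWT, against 33.2% and 33.1% of all tested genes, with a median log2 fold change of 0.94. Col11a2 and Col24a1 did not pass, with log2 fold changes of -0.08 and -0.13. With cKO, 3 of the 11 rose (Col5a3, Col27a1 and Col11a2) and 0 fell between cKO_SOD1 and cKO, with a median of 0.26. Of all tested genes, 4.8% rose and 2.48% fell. At an unadjusted p under 0.05 there were 4 higher and 0 lower. That count of 3 was 1, 1 and 0 without cKO replicates 1, 2 or 4, 2 without cKO replicate 3, and 1, 0 and 1 without cKO_SOD1 replicates 1, 2 or 3. Between the 2 transgenic groups 8 of the 11 were lower in cKO_SOD1 and 1 was higher, against 29.1% of all tested genes in each direction.

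Col1a1 and Col1a2 encode the chains of type I collagen, the most abundant fibre-forming collagen of the body. Col1a1 stood at 15, 14.3, 18.6 and 19.7 CPM in the cWT libraries, at 22.3, 14.5, 16.6 and 17.6 in cKO, at 30.1, 44.9, 43.4 and 42.8 in cWT_SOD1 and at 24.2, 21.9, 17.6 and 21.8 in cKO_SOD1. All cWT_SOD1 libraries lay above every library of the other groups, although replicate 1 lay apart from the other cWT_SOD1 libraries at the low end. It rose 2.38-fold between cWT_SOD1 and cWT (log2 fold change 1.25, SE 0.15, edgeR adjusted p = 8.2e-07), while cKO_SOD1 differed from cKO by a log2 fold change of 0.26 (edgeR adjusted p = 0.326). The interaction was -0.99 (SE 0.21, edgeR adjusted p = 0.000979).

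Col1a2 had 46.2, 50, 43.4 and 50.8 CPM in cWT and 52, 44.2, 47.8 and 42.99 in cKO. In the transgenic groups it had 61.4, 86.3, 90.7 and 77.6 CPM (cWT_SOD1) and 66.8, 60.04, 49.4 and 61.2 CPM (cKO_SOD1). The cWT_SOD1 libraries again lay above all cWT and cKO libraries, but replicate 1 fell within the range of cKO_SOD1. Its rise with the transgene was 1.66-fold in cWT (log2 fold change 0.73, SE 0.11, edgeR adjusted p = 1.25e-05). In cKO it was 1.27-fold, which edgeR did not call (log2 fold change 0.34, SE 0.11, edgeR adjusted p = 0.0666). That rise was called by DESeq2 (adjusted p = 0.03), limma-voom (0.0184), limma on log2(FPKM + 0.1) (0.0421), upper-quartile scaling in edgeR (0.0476), the fit of those 2 groups alone (0.0152), and without cWT_SOD1 replicates 1 or 3 (0.0107 and 0.0479) or cKO_SOD1 replicate 3 (0.0241). The Col1a2 interaction passed at an edgeR adjusted p of 0.0483. That last call was lost without cWT replicates 1, 2 or 3, cKO replicates 1, 2 or 3, cWT_SOD1 replicates 2, 3 or 4, or cKO_SOD1 replicates 2, 3 or 4, with edgeR adjusted p from 0.0522 to 0.109. It was also lost with no filter on counts (edgeR adjusted p = 0.0506), with the replicate block (0.0703) and with sex as a covariate (0.0539). Limma on unfiltered log2(FPKM + 0.1) did not call it either (adjusted p = 0.0551).

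Col3a1, the only chain of type III collagen, a companion of type I in vessel walls, followed with 13.5, 9.59, 14.9 and 13.8 CPM in cWT, 16.2, 11.2, 12.6 and 13.3 in cKO, 17.8, 31.8, 21.5 and 26.4 in cWT_SOD1 and 19.1, 12.2, 14.2 and 18.8 in cKO_SOD1. Groups cWT_SOD1 and cWT did not overlap, whereas cWT_SOD1 and cKO_SOD1 did. The rise between cWT_SOD1 and cWT was 1.88-fold (log2 fold change 0.91, SE 0.18, edgeR adjusted p = 0.000306), and the interaction lay close to the threshold (log2 fold change -0.65, edgeR adjusted p = 0.0523). The Col3a1 interaction was called by DESeq2 (adjusted p = 0.0378), with RLE or upper-quartile scaling (0.0488 and 0.049), with sex as a covariate (0.0253), and without cWT replicate 3, cKO replicate 2, cWT_SOD1 replicates 1 or 3, or cKO_SOD1 replicates 1 or 4 (edgeR adjusted p from 0.0123 to 0.048).

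Type V collagen nucleates fibrils and sets their width. Its alpha 3 chain gene, Col5a3, had the highest log2 fold change of all collagens with the transgene. It stood at 9.67, 9.47, 4.498 and 4.097 CPM in cWT, 6.26, 9.12, 10.1 and 5.95 in cKO, 54.04, 105, 123 and 52.8 in cWT_SOD1 and 20.4, 19.8, 19.3 and 13.5 in cKO_SOD1. Both transgenic groups lay wholly above their non-transgenic counterparts, and within cWT_SOD1 replicates 1 and 4 were lower than replicates 2 and 3. The rise was 12.04-fold in cWT (log2 fold change 3.59, SE 0.32, edgeR adjusted p = 2.74e-08) and 2.33-fold in cKO (log2 fold change 1.22, SE 0.32, edgeR adjusted p = 0.0255). The second of these was not called without any of cKO replicates 1, 2 or 4 (edgeR adjusted p = 0.0854, 0.0511 and 0.0737) or cKO_SOD1 replicates 1, 2 or 3 (0.0593, 0.0634 and 0.0626). The interaction was -2.37 (edgeR adjusted p = 0.000395).

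Col5a1, the chain found in nearly all type V trimers, had 5.73, 6.79, 4.39 and 2.55 CPM in cWT, 3.98, 6.26, 7.15 and 5.41 in cKO, 12.4, 17.5, 21 and 11.9 in cWT_SOD1 and 6.56, 5.497, 6.15 and 5.57 in cKO_SOD1. The cWT_SOD1 libraries stood above all others, and the remaining 3 groups shared a range. Its transgene effect was 3.24-fold in cWT (log2 fold change 1.69, SE 0.24, edgeR adjusted p = 6.74e-06) and 1.04-fold in cKO (log2 fold change 0.06, SE 0.25, edgeR adjusted p = 0.922), with an interaction of -1.63 (edgeR adjusted p = 0.000935). Col5a2 rose 2.78-fold in cWT (edgeR adjusted p = 1.93e-05).

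Of the remaining fibrillar genes, Col27a1, expressed in cartilage and other developing tissue, rose 2.27-fold in cWT (edgeR adjusted p = 1.5e-06) and 1.503-fold in cKO (edgeR adjusted p = 0.0186). Its call in cKO was lost without cKO replicate 4 (edgeR adjusted p = 0.0584) and without cKO_SOD1 replicates 2 or 3 (0.0541 and 0.0745), and in the limma fits on FPKM (adjusted p from 0.0531 to 0.0769). Col11a2, a chain of cartilage type XI collagen, did not pass in cWT_SOD1 against cWT. It had 43.5, 43.7, 33.4 and 27.6 CPM in cWT, 35.8, 34.1, 36.6 and 35.6 in cKO, 40.6, 32.6, 30.7 and 36.6 in cWT_SOD1 and 49.2, 47.95, 48.4 and 43.5 in cKO_SOD1. The cKO_SOD1 libraries stood above all cKO and all cWT_SOD1 libraries. Col11a2 rose between cKO_SOD1 and cKO (log2 fold change 0.41, SE 0.12, edgeR adjusted p = 0.0364) and was higher in cKO_SOD1 than in cWT_SOD1 (log2 fold change 0.43, SE 0.12, edgeR adjusted p = 0.0042). The first of these was not called without cKO replicates 1, 2, 3 or 4 (edgeR adjusted p = 0.0851, 0.107, 0.0721 and 0.0723), without cKO_SOD1 replicates 1, 2 or 3 (0.0937, 0.0829 and 0.101), or with limma on unfiltered FPKM (adjusted p = 0.0558). The positive interaction of Col11a2 (0.49, edgeR adjusted p = 0.0215) was not called without cWT replicates 1 or 2 (0.0528 and 0.0511) or without cWT_SOD1 replicate 2 (0.0525).

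The promoter of Col5a3 is shown because that gene had the highest log2 fold change, and it serves as a reference for the type IV promoters below. The 250 bases before its RefSeq start in GRCm38.p6, at chr9:20815068-20815317 on the minus strand, are printed 5′ to 3′ with matches to CCAAT and to GGGCGG (the GC box, either strand) in capitals.
Col5a3: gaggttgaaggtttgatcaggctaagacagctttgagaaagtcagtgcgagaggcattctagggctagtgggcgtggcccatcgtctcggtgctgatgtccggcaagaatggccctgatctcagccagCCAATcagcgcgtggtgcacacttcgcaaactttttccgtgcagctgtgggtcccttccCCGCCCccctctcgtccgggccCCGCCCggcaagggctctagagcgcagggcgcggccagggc
It holds 1 CCAAT match and 2 GGGCGG matches. Of 32851 mouse RefSeq promoter windows, searched likewise over the 250 bases before the start, 33.8% hold CCAAT and 32.7% hold GGGCGG.

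The type IV basement membrane genes lie in pairs and changed unequally with the transgene. Each pair lies side by side in the files' mm9 coordinates, with Col4a1 at chr8:11198423-11312826 and Col4a2 at chr8:11312829-11449287, Col4a4 at chr1:82447298-82583424 and Col4a3 at chr1:82583496-82718634, and Col4a6 at chrX:137599946-137908619 and Col4a5 at chrX:137909962-138123778. The genes of the X-linked pair rose 5.06-fold (Col4a6) and 3.28-fold (Col4a5) between cWT_SOD1 and cWT, Col4a1 rose 1.42-fold, and Col4a2, Col4a3 and Col4a4 did not pass. In all, 3 of 6 rose and 0 fell, against 33.2% and 33.1% of all tested genes, with a median log2 fold change of 0.51. With cKO only Col4a5 of the 6 rose between cKO_SOD1 and cKO, where 4.8% of all tested genes rose. At an unadjusted p under 0.05, 2 of the 6 were higher and 0 lower.

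Col4a1 and Col4a2 encode the alpha 1 and alpha 2 chains, which make up the type IV trimer of nearly all basement membranes, vessels included. Col4a1 stood at 32.7, 32.1, 27.5 and 21.98 CPM in cWT, 38.4, 36.9, 36.5 and 28.8 in cKO, 24.96, 56.9, 42.7 and 37.3 in cWT_SOD1 and 42.3, 32.7, 32.6 and 27.8 in cKO_SOD1. The groups overlapped, and the cWT_SOD1 libraries held both the second-lowest and the highest value of all 16. Its rise in cWT (log2 fold change 0.51, SE 0.19, edgeR adjusted p = 0.028) was not called without cWT replicates 3 or 4 (edgeR adjusted p = 0.0602 and 0.0963), without cWT_SOD1 replicates 2 or 3 (0.14 and 0.0583), with limma-voom (adjusted p = 0.0598), or when only those 2 groups entered the fit (0.0563). Without cWT_SOD1 replicate 1, the Col4a1 interaction and the lower level in cKO_SOD1 than in cWT_SOD1 were called (edgeR adjusted p = 0.00928 and 0.0229), neither of which was with all libraries. Col4a2 had 39.2, 40.1, 35.04 and 27.2 CPM in cWT, 36.4, 46.3, 42.4 and 34.1 in cKO, 32.03, 42.8, 38.7 and 33.5 in cWT_SOD1 and 45.9, 38.5, 42.1 and 36.1 in cKO_SOD1, with all 4 groups in 1 range. No contrast passed for Col4a2, and its log2 fold change between cWT_SOD1 and cWT was 0.06 (SE 0.13, edgeR adjusted p = 0.707).

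Col4a5 and Col4a6 encode chains that join in the alpha 5 and alpha 6 type IV network of smooth muscle and some epithelial basement membranes, and COL4A5 is the gene of X-linked Alport syndrome. Col4a5 had 11.4, 10.9, 9.996 and 7.86 CPM in cWT, 8.12, 10.1, 10.8 and 7.798 in cKO, 28.04, 36.03, 41.2 and 26.5 in cWT_SOD1 and 11.6, 15.02, 14.1 and 12.6 in cKO_SOD1. Each transgenic group lay above its non-transgenic counterpart, and cWT_SOD1 lay above cKO_SOD1 without overlap. The transgene effect was 1.71 (log2, SE 0.15, edgeR adjusted p = 2.55e-08) in cWT and 0.54 (SE 0.15, edgeR adjusted p = 0.0417) in cKO. The interaction was -1.17 (edgeR adjusted p = 0.000299). The call in cKO was lost without cWT replicates 2 or 3 (edgeR adjusted p = 0.0509 and 0.055), cKO replicates 1, 2 or 4 (0.127, 0.0653 and 0.115), or cKO_SOD1 replicates 2, 3 or 4 (0.12, 0.109 and 0.0646), and in the limma fits on FPKM (adjusted p from 0.0509 to 0.083), so that 0 of the 6 type IV genes were then called.

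Col4a6 had 1.84, 2.28, 2.22 and 2.44 CPM in cWT, 1.75, 1.86, 2.22 and 2.44 in cKO, 9.899, 12.01, 13.9 and 8.48 in cWT_SOD1 and 3.04, 3.19, 2.24 and 2.64 in cKO_SOD1. Every cWT_SOD1 library lay far above the libraries of the other groups, and cKO_SOD1 overlapped cKO. It rose 5.06-fold in cWT (log2 fold change 2.34, SE 0.17, edgeR adjusted p = 2.5e-09) and was 4.01-fold lower in cKO_SOD1 than in cWT_SOD1 (log2 fold change -2.004, SE 0.16, edgeR adjusted p = 3.84e-08). The rise in cKO did not pass (log2 fold change 0.42, SE 0.18, edgeR adjusted p = 0.197), and the interaction had the smallest p among the collagens (log2 fold change -1.92, edgeR adjusted p = 1.78e-05).

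Since both genes of the X-linked pair rose between cWT_SOD1 and cWT, the 250 bases before each RefSeq start in GRCm38.p6 are printed with the same marks. The 2 starts face away from each other, 1343 bases apart, with Col4a6 on the minus strand (chrX:141474077-141474326) and Col4a5 on the plus strand (chrX:141475169-141475418).
Col4a6: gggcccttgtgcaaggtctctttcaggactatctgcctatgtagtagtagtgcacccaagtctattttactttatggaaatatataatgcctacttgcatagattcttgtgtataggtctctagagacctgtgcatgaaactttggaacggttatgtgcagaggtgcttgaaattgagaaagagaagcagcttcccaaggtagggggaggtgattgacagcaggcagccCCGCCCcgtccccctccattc
Col4a5: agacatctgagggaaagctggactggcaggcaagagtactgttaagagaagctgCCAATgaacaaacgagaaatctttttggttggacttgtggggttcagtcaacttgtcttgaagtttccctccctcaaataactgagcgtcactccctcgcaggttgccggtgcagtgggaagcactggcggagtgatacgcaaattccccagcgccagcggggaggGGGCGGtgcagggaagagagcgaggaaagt
The Col4a6 window holds 1 GGGCGG match and 0 CCAAT matches, and the Col4a5 window holds 1 of each. Col4a1 and Col4a2 also lie on opposite strands of chromosome 8, with starts 21 bases apart. There the minus-strand start of Col4a1 (11312826) lies past the plus-strand start of Col4a2 (11312805). By these RefSeq starts the first transcribed bases of these 2 genes overlap, whereas their mm9 loci given above do not.

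**Figure D2:**
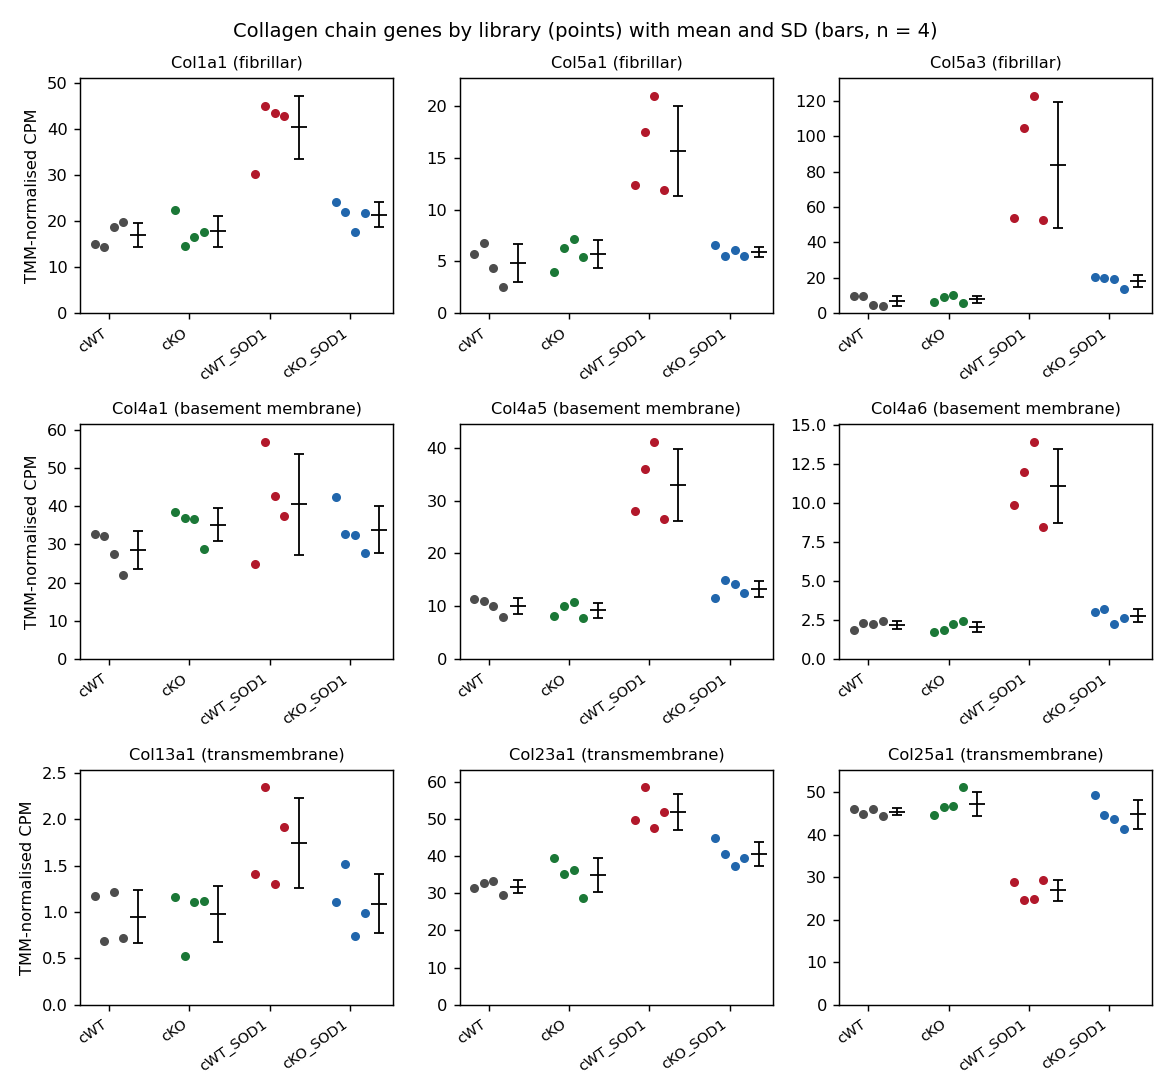
TMM-normalised CPM is plotted for 3 fibrillar, 3 basement membrane and 3 transmembrane collagen genes in every library (points, y axis from 0 in each panel), with group means and SD (bars, n = 4). Points of cWT_SOD1 stand above all others for Col1a1, Col5a1, Col5a3, Col4a5 and Col4a6, below all others for Col25a1, and among the others for Col4a1.

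The transmembrane collagens did not move as a group. Of 3 tested, 2 rose (Col23a1 and Col13a1) and 1 fell (Col25a1) between cWT_SOD1 and cWT, against 33.2% and 33.1% of all tested genes. Between cKO_SOD1 and cKO, edgeR called 0 of 3, with 1 higher and 0 lower at an unadjusted p under 0.05, and DESeq2, limma-voom and limma on FPKM also called 0. Between the transgenic groups Col25a1 was higher in cKO_SOD1 and the other 2 were lower. Col17a1, the hemidesmosome collagen of skin, was not tested for lack of counts.

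Col25a1 encodes the precursor of a collagenous component of amyloid plaques, is expressed by neurons and is needed in development for motor axons to innervate muscle. It stood at 46.2, 45.03, 46.2 and 44.4 CPM in cWT, 44.6, 46.5, 46.9 and 51.2 in cKO, 28.8, 24.8, 24.9 and 29.4 in cWT_SOD1 and 49.5, 44.8, 43.7 and 41.3 in cKO_SOD1. The cWT_SOD1 libraries lay below every other library, and the other 3 groups overlapped. It was 1.69-fold lower in cWT_SOD1 than in cWT (log2 fold change -0.76, SE 0.07, edgeR adjusted p = 3.58e-08), did not pass between cKO_SOD1 and cKO (log2 fold change -0.08, SE 0.07, edgeR adjusted p = 0.523), and was 1.66-fold higher in cKO_SOD1 than in cWT_SOD1 (log2 fold change 0.73, SE 0.07, edgeR adjusted p = 1.45e-07). The interaction was 0.68 (SE 0.09, edgeR adjusted p = 3.04e-05). Of 8 motor neuron markers, all 8 fell in cWT_SOD1 and all 8 fell in cKO_SOD1, against 33.1% and 2.48% of all tested genes. Their summed levels were 476 to 616 CPM in cWT, 420.3 to 483 in cKO, 137 to 187 in cWT_SOD1 and 167 to 218 in cKO_SOD1. The part of these markers in the Col25a1 result was not tested.

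Because Col25a1 was 1 of the 2 collagen genes that fell between cWT_SOD1 and cWT, its promoter is shown beside those above, from chr3:130180595-130180844 of GRCm38.p6 on the plus strand, with the same marks.
Col25a1: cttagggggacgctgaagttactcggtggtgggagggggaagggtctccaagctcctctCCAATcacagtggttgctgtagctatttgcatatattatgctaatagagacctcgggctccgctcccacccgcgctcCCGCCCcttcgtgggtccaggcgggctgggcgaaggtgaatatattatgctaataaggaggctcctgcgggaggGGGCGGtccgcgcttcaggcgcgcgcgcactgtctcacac
It holds 1 CCAAT match and 2 GGGCGG matches, the same counts as the Col5a3 window.

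Col23a1, a shed membrane collagen, had 31.5, 32.7, 33.4 and 29.6 CPM in cWT, 39.4, 35.2, 36.2 and 28.7 in cKO, 49.8, 58.5, 47.4 and 51.9 in cWT_SOD1 and 45.01, 40.5, 37.3 and 39.4 in cKO_SOD1. The cWT_SOD1 group lay above the other 3, which overlapped in part. Its transgene effect was 1.63-fold in cWT (log2 fold change 0.71, SE 0.09, edgeR adjusted p = 1.6e-06) and 1.16-fold in cKO (log2 fold change 0.22, SE 0.09, edgeR adjusted p = 0.155), with an interaction of -0.49 (edgeR adjusted p = 0.00388).

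Col13a1, which at the neuromuscular junction helps to hold nerve terminal and muscle together, was low, with 1.18, 0.685, 1.22 and 0.7198 CPM in cWT, 1.17, 0.5304, 1.11 and 1.12 in cKO, 1.41, 2.35, 1.302 and 1.92 in cWT_SOD1 and 1.11, 1.52, 0.745 and 0.994 in cKO_SOD1. The cWT_SOD1 libraries lay above cWT but overlapped cKO_SOD1. It rose in cWT (log2 fold change 0.87, SE 0.29, edgeR adjusted p = 0.0134), a call lost without cWT_SOD1 replicate 2 (edgeR adjusted p = 0.0567). The lower level in cKO_SOD1 than in cWT_SOD1 (log2 fold change -0.68, SE 0.28, edgeR adjusted p = 0.045) was called neither by DESeq2 (adjusted p = 0.0628) nor by limma-voom (0.0865), nor by edgeR without cWT_SOD1 replicates 2 or 4 (0.163 and 0.087), cKO_SOD1 replicates 1, 3 or 4 (0.0684, 0.129 and 0.0943) or cKO replicates 1, 3 or 4 (0.0513, 0.0533 and 0.0512).

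Set side by side per length, the 3 classes had different summed levels. Fibrillar chains summed to 31.3 ± 3.51 FPKM in cWT, 32.8 ± 0.86 in cKO, 67.1 ± 10.03 in cWT_SOD1 and 42.7 ± 2.95 in cKO_SOD1 (SD, n = 4). Basement membrane chains summed to 11.97 ± 1.95, 13.5 ± 1.54, 19.5 ± 3.797 and 14.5 ± 1.603 FPKM in the same order. Transmembrane chains summed to 12.1 ± 0.5003, 12.95 ± 0.393, 13.95 ± 0.931 and 13.99 ± 1.02 FPKM. The fibrillar sums of cWT_SOD1 lay above all other libraries, the basement membrane sums of cWT_SOD1 overlapped those of cKO_SOD1, and the transmembrane sums overlapped between the transgenic groups. All 43 genes summed to 85.5 ± 6.59 FPKM in cWT and 177 ± 14.6 in cWT_SOD1, and to 91.97 ± 2.44 in cKO and 115 ± 4.81 in cKO_SOD1.

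**Figure D3:**
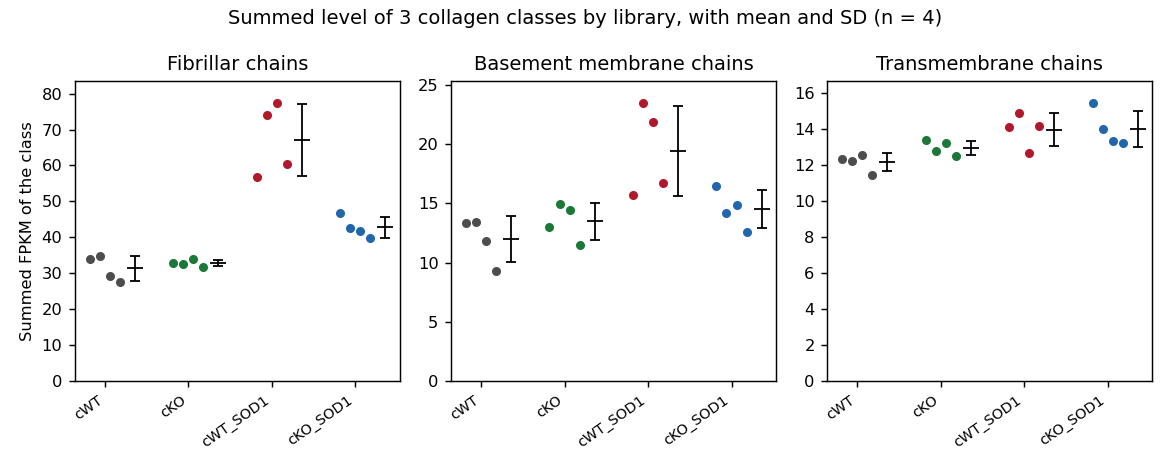
The summed FPKM of the fibrillar, basement membrane and transmembrane collagen genes is plotted for each library (points, y axis from 0) with group mean and SD (bars, n = 4). Fibrillar sums of cWT_SOD1 run from 56.8 to 77.3 and lie above every other library, while transmembrane sums run from 11.4 to 15.4 over all 16 libraries.

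The order of the chains by FPKM changed with group. In cWT the leading chain was Col1a2 at 9.39 ± 0.655 FPKM, followed by Col11a2 (6.41 ± 1.38), Col25a1 (6.18 ± 0.121), Col9a3 (5.94 ± 0.911), Col23a1 (5.68 ± 0.316) and Col4a2 (5.56 ± 0.937). The means ± SD of Col11a2, Col9a3 and Col4a2 overlapped those of all 5 genes after Col1a2, while Col25a1 and Col23a1 did not overlap each other. In cWT_SOD1 the order was Col16a1 (22.3 ± 2.65), Col1a2 (16.1 ± 2.41), Col9a3 (15.7 ± 2.12) and Col5a3 (13.95 ± 5.87), of which the last 3 did not differ beyond their SD. In cKO_SOD1 Col1a2 led at 12.04 ± 1.37 FPKM, as it did in cKO at 9.27 ± 0.717.

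Among the FACITs, which decorate fibril surfaces, 7 of 9 rose and 1 fell (Col19a1) between cWT_SOD1 and cWT. The shares of all tested genes were 33.2% and 33.1%, and the median FACIT log2 fold change was 1.02. Between cKO_SOD1 and cKO 2 of 9 rose (4.8% of all tested genes), and between cKO_SOD1 and cWT_SOD1 5 of 9 fell (29.1% of all tested genes). Col16a1, a minor fibril-associated collagen, stood at 32.7, 34.6, 27.9 and 20.9 CPM in cWT, 25.4, 30.3, 26.9 and 30.9 in cKO, 139, 109, 115 and 119.8 in cWT_SOD1 and 44.1, 48.9, 50.2 and 53.9 in cKO_SOD1. The cWT_SOD1 group lay highest and cKO_SOD1 next, with no overlap between these groups or with the non-transgenic ones. Its transgene effect was 4.16-fold in cWT (log2 fold change 2.06, SE 0.12, edgeR adjusted p = 2.96e-10) and 1.74-fold in cKO (log2 fold change 0.80, SE 0.12, edgeR adjusted p = 0.000455), and the interaction was -1.26 (edgeR adjusted p = 2.42e-05).

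Col12a1, a large FACIT of tendon and of regenerating tissue, had 19.9, 19.8, 22.3 and 14.9 CPM in cWT, 21.1, 19.9, 21.3 and 11.8 in cKO, 66.3, 108, 126 and 61.1 in cWT_SOD1 and 34.2, 33.6, 41.2 and 33.5 in cKO_SOD1. Again the cWT_SOD1 group was highest and cKO_SOD1 second without overlap. It rose 4.702-fold in cWT (log2 fold change 2.23, SE 0.22, edgeR adjusted p = 9.14e-08) and 1.93-fold in cKO (log2 fold change 0.95, SE 0.22, edgeR adjusted p = 0.012). Replicates 1 and 4 of cWT_SOD1 were the lower pair here, as they were for Col5a3.

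Col20a1 had 2.71, 3.196, 2.67 and 2.05 CPM in cWT, 2.55, 3.39, 2.16 and 2.29 in cKO, 8.36, 14.02, 21.1 and 16.6 in cWT_SOD1 and 2.93, 4.71, 4.19 and 3.93 in cKO_SOD1. The cWT_SOD1 libraries lay above all others. The rise was 5.65-fold in cWT (log2 fold change 2.50, SE 0.24, edgeR adjusted p = 7.32e-08) and did not pass in cKO (log2 fold change 0.61, SE 0.26, edgeR adjusted p = 0.181), with an interaction of -1.89 (edgeR adjusted p = 0.000358). Per length the authors' values ran from 0.217 ± 0.0425 FPKM in cWT to 3.07 ± 1.197 in cWT_SOD1, a wider gap than in CPM. Col9a3, a chain of the cartilage FACIT type IX, had 16.1 ± 2.51 CPM in cWT, 19.5 ± 1.86 in cKO, 41.2 ± 5.81 in cWT_SOD1 and 24.5 ± 3.62 in cKO_SOD1 (SD, n = 4). It rose 2.56-fold in cWT (log2 fold change 1.35, SE 0.13, edgeR adjusted p = 5.49e-08), its rise in cKO did not pass (edgeR adjusted p = 0.133), and its locus overlaps that of Tcfl5.

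Col19a1 gave a different answer in the 2 deposited units. Its counts came to 16.9, 20.95, 14.4 and 149.5 CPM in cWT, 14.6, 20.2, 17.3 and 20.9 in cKO, 13.6, 8.66, 6.85 and 8.35 in cWT_SOD1 and 17.9, 18.7, 19.3 and 15.6 in cKO_SOD1. The authors' FPKM for the same libraries were 1.58, 1.97, 1.35 and 1.29 in cWT, 1.35, 1.899, 1.65 and 1.97 in cKO, 1.36, 0.8296, 0.664 and 0.801 in cWT_SOD1 and 1.73, 1.78, 1.897 and 1.49 in cKO_SOD1. The cWT replicate 4 library was thus the highest of all in counts and the lowest of its group in FPKM, and its ratio of CPM to FPKM lay 10.8-fold from the gene's median over libraries. No other library departed by more than 0.02 on the log2 scale for this gene, and 16 of 15204 genes (0.105%) departed by more than 4-fold in any library.

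On counts, Col19a1 fell 5.39-fold between cWT_SOD1 and cWT (log2 fold change -2.43, SE 0.60, edgeR adjusted p = 0.00164). Without cWT replicate 4 the log2 fold change was -0.90 (edgeR adjusted p = 0.000593), and limma on log2(FPKM + 0.1) gave -0.73 (adjusted p = 0.00285), while limma-voom did not call it (-1.70, adjusted p = 0.0855). The higher level in cKO_SOD1 than in cWT_SOD1 was not called with all libraries (log2 fold change 0.93, SE 0.61, edgeR adjusted p = 0.202) but was called without cWT replicate 4 (0.94, edgeR adjusted p = 0.000271) and on FPKM (0.89, limma adjusted p = 0.000757). The interaction was 2.40 with all libraries (edgeR adjusted p = 0.0245) and 0.87 without cWT replicate 4 (edgeR adjusted p = 0.0111). The direction between cKO and cWT turned from -1.47 to 0.07 without that library and to 0.15 on FPKM, none of them called.

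**Figure D4:**
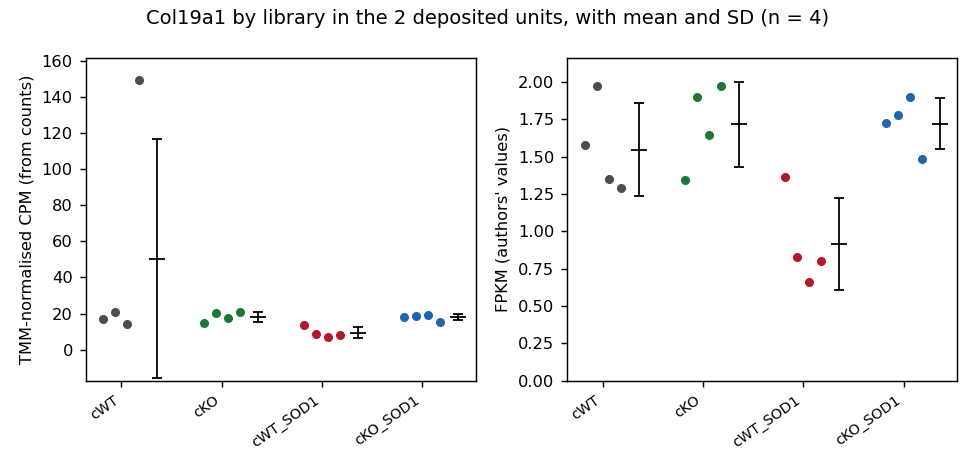
Col19a1 is plotted in every library as TMM-normalised CPM from the deposited counts (left) and as the authors' FPKM (right), with group mean and SD (n = 4; both y axes are linear). The cWT replicate 4 point stands at 149.5 CPM on the left and at 1.29 FPKM, the lowest of its group, on the right.

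Type VI collagen forms beaded microfibrils around cells. Its Col6a1 stood at 12.7, 10.6, 11.1 and 10.1 CPM in cWT, 12.4, 14.4, 12.3 and 12.7 in cKO, 15.3, 24.3, 22.02 and 20.2 in cWT_SOD1 and 17.03, 13.4, 15.2 and 14.5 in cKO_SOD1. The cWT_SOD1 libraries lay above cWT and cKO, and replicate 1 fell within the cKO_SOD1 range. The rise was 1.84-fold in cWT (log2 fold change 0.88, SE 0.12, edgeR adjusted p = 5.48e-06) and did not pass in cKO (edgeR adjusted p = 0.326). Of the 6 type VI genes, 2 rose in cWT_SOD1 (Col6a1 and Col6a2) and 0 fell. That share of rises is near the 33.2% of all tested genes that rose, beside 33.1% that fell. Col6a3, whose product joins those of Col6a1 and Col6a2 in the type VI trimer, did not pass (log2 fold change -0.03, edgeR adjusted p = 0.88).

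Col18a1, the precursor of endostatin and a basement membrane component, had 10.2, 8.85, 8.497 and 7.03 CPM in cWT, 8.28, 10.6, 10.97 and 10.4 in cKO, 11.9, 19.3, 17.4 and 18.6 in cWT_SOD1 and 12.1, 11.3, 10.3 and 9.395 in cKO_SOD1. The cWT_SOD1 group lay above cWT and cKO, and its replicate 1 fell within the range of cKO_SOD1. It rose 1.94-fold in cWT (log2 fold change 0.96, SE 0.15, edgeR adjusted p = 1.63e-05) and 1.07-fold in cKO, which did not pass (edgeR adjusted p = 0.764). The other multiplexin, Col15a1, rose 1.94-fold in cWT (edgeR adjusted p = 8.77e-06).

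Col28a1, a von Willebrand factor A domain collagen found around Schwann cells and nerves, was low without the transgene at 0.563, 0.514, 0.4998 and 0.443 CPM in cWT and 0.902, 0.5304, 0.831 and 0.7798 in cKO. It stood at 1.05, 6.87, 3.51 and 5.24 CPM in cWT_SOD1 and 0.819, 0.8899, 0.559 and 0.398 in cKO_SOD1. The cWT_SOD1 libraries lay above all others but ranged widely, with replicate 1 lowest. The rise in cWT was 8.16-fold (log2 fold change 3.03, SE 0.44, edgeR adjusted p = 9.04e-06), cKO_SOD1 and cKO overlapped (log2 fold change -0.21, SE 0.51, edgeR adjusted p = 0.863), and the interaction was -3.23 (SE 0.68, edgeR adjusted p = 0.00101).

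Across the 41 tested genes, the libraries of a group did not rank alike. In cWT, replicate 4 was the lowest of its group for 22 genes. In cWT_SOD1, replicate 1 was lowest for 15 and replicate 4 for 11, while replicates 2 and 3 were highest for 15 and 13.

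Companion genes of the collagens were taken from lists named from general knowledge. Their counts stand against the 33.2% of all tested genes that rose and the 33.1% that fell between cWT_SOD1 and cWT. The shares between cKO_SOD1 and cKO were 4.8% higher and 2.48% lower. Between cKO_SOD1 and cWT_SOD1 they were 29.1% in each direction. Of 17 tested genes for hydroxylation and folding of collagen chains, 15 rose and 0 fell between cWT_SOD1 and cWT (median log2 fold change 0.91), and 4 rose between cKO_SOD1 and cKO. P4ha3, a prolyl hydroxylase subunit, had 14.7 ± 0.714 CPM in cWT, 16.4 ± 1.997 in cKO, 74.95 ± 9.06 in cWT_SOD1 and 25.6 ± 2.302 in cKO_SOD1 (SD, n = 4), a 5.12-fold rise in cWT (edgeR adjusted p = 5.85e-12). Fkbp10, a collagen chaperone, rose 2.79-fold and P4hb, protein disulfide isomerase and the shared prolyl hydroxylase subunit, 1.595-fold. Mia3 is listed at 0 in all libraries. Between cKO_SOD1 and cWT_SOD1, 14 of the 17 fell and 0 rose.

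Of 13 tested genes for propeptide removal and cross-linking, 6 rose and 4 fell in cWT_SOD1, a share lower that is near that of all tested genes (33.1%). The lysyl oxidase-like cross-linkers Loxl2 (7.29-fold) and Loxl3 (3.95-fold) and the C-proteinase gene Bmp1 (3.13-fold) had the smallest p. Lox, the founding lysyl oxidase, named here after its values were seen, had 1.402 ± 0.498 CPM in cWT, 1.31 ± 0.324 in cKO, 22.1 ± 10.5 in cWT_SOD1 and 2.198 ± 0.808 in cKO_SOD1 (SD, n = 4), a 15.7-fold rise in cWT (edgeR adjusted p = 3.03e-08). The 4 that fell were the propeptide proteinases Adamts2, Adamts3, Tll1 and Tll2, with log2 fold changes of -0.91, -0.998, -0.997 and -0.69. Between cKO_SOD1 and cKO 2 of 13 rose and 1 fell.

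Collagen receptors rose, 8 of 9 with 0 falling in cWT_SOD1 and 3 of 9 in cKO_SOD1. The leading members were the inhibitory leukocyte receptor Lair1 (5.396-fold), the integrin beta 1 chain gene Itgb1 (1.79-fold) and the discoidin receptor Ddr1 (2.04-fold). Small leucine-rich proteoglycans, which bind fibrils and limit their width, rose for 6 of 7 tested with 0 falling. Fmod had 29.9 ± 4.33 CPM in cWT and 204 ± 66.8 in cWT_SOD1, Prelp 29.6 ± 1.92 and 144 ± 54.6, and Lum 4.89 ± 0.847 and 23.5 ± 7.299 (SD, n = 4). Kera is listed at 0 in all libraries.

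The laminins, nidogens and other basement membrane genes rose for 11 of 15 and fell for 1 (Lama1, log2 fold change -0.61) in cWT_SOD1, and rose for 2 of 15 in cKO_SOD1. Nid2, a nidogen that links laminin to type IV collagen, rose 5.17-fold, the laminin beta 2 gene Lamb2 2.55-fold and the laminin alpha 2 gene Lama2 2.04-fold (edgeR adjusted p = 2.72e-09, 5.08e-08 and 4.33e-07). Of 14 tested genes of transforming growth factor beta signalling, a pathway known to raise collagen expression in many cells, 10 rose and 0 fell in cWT_SOD1 and 5 rose in cKO_SOD1. The receptor genes Tgfbr2 and Tgfbr1 rose 4.52-fold and 4.73-fold and the ligand gene Tgfb1 5.701-fold.

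Markers of the cells that could hold collagen transcripts moved with these results to different degrees. Of 14 tested fibroblast and meningeal markers 4 rose (Pdgfra, Crym, Lum and Dcn) and 0 fell in cWT_SOD1, where 33.2% of all tested genes rose and 33.1% fell. The same shares stand beside the other marker lists. The fibroblast and meningeal list summed to 171 to 218 CPM in cWT, 186 to 231 in cKO, 283 to 465 in cWT_SOD1 and 233 to 273 in cKO_SOD1. Mean counts per library, not scaled, went from 861 in cWT to 2342 in cWT_SOD1 for Dcn and from 1250 to 1918 for Pdgfra. They went from 8.5 to 412 for Crym and from 89.25 to 397.5 for Lum, so the higher sum came mainly from the 4 called markers. Of the markers not called, Igf2 went from 893 to 742 and Aldh1a2 from 247.2 to 184.8. Dpt went from 69 to 52.5 and Slc6a13 from 119 to 133, also not called. In all, 10 of the 14 markers had a positive log2 fold change. Whether a listed marker is also expressed by other cell types was not tested. Lum and Dcn are also in the list of proteoglycans above. Of 12 pericyte and smooth muscle markers 5 rose and 1 fell, and the sum ran over 162 to 201 CPM in cWT, 181 to 199 in cKO, 221 to 273 in cWT_SOD1 and 197 to 227 in cKO_SOD1. The 12 endothelial markers showed 2 higher (Flt1 and Abcb1a) and 2 lower (Kdr and Emcn), with sums of 308 to 351, 320.1 to 375, 314 to 368 and 324 to 364 CPM in the same order of groups.

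Among 10 Schwann cell markers 6 rose and 1 fell, led by Egr2 (12.1-fold), Gldn (2.88-fold) and Fbln5 (3.43-fold), and the sums overlapped in all groups (766 to 895 CPM in cWT, 792 to 852 in cKO, 696 to 971 in cWT_SOD1 and 818 to 965 in cKO_SOD1). Mal made the largest part of these sums, with mean counts per library, not scaled, of 10700 in cWT and 7824 in cWT_SOD1. Pmp22 came next with 3068 and 3406. The overlap of the sums therefore says little about the lower markers of the list. All 10 microglial markers rose, with sums of 281 to 317 CPM in cWT, 273 to 379.8 in cKO, 1599 to 2547 in cWT_SOD1 and 569 to 603 in cKO_SOD1. Of 8 astrocyte markers 5 rose and 1 fell (8369 to 8904, 8107 to 8886, 20120 to 24760 and 11930 to 12530 CPM), and of 6 oligodendrocyte markers 0 rose and 4 fell (24550 to 28120, 25280 to 27690, 19930 to 23870 and 24160 to 28170 CPM). The astrocyte log2 fold changes between cWT_SOD1 and cWT ran from -0.496 to 3.167 with a median of 0.574, so that sum does not describe every marker of the list. Of 7 tested cartilage and bone markers 3 rose and 3 fell, with sums of 225 to 249, 214 to 239, 642 to 1260 and 212 to 220.3 CPM, with Spp1 alone at 966 ± 284 CPM in cWT_SOD1, while Bglap and Ibsp averaged 0.129 ± 0.124 and 0.08696 ± 0.0718 CPM in cWT_SOD1. Skeletal muscle markers summed to at most 4.49 CPM in any library, and of 4 tested 1 rose and 1 fell. Between cKO_SOD1 and cKO, 8 of the 10 microglial, 2 of the 8 astrocyte, 1 of the 14 fibroblast and 1 of the 12 pericyte markers rose and 0 of these fell. Of all tested genes, 4.8% rose and 2.48% fell in that comparison, so the fibroblast and pericyte counts are near the share of all genes. The part of these markers in the collagen results was not tested.

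The tested genes whose log2 CPM pattern over the 16 libraries was most like that of Col1a1 were Rcn1 (Pearson r = 0.974), Dhrs4 (0.973), Fkbp9 (0.971), Rab5c (0.971) and Serp1 (0.968). For Col4a1 they were Ptprj (0.936), Frmpd1 (0.918), Dlg5 (0.912), Map3k5 (0.906) and Esam (0.905), none of them a collagen. These correlations describe 16 libraries that fall in 4 groups, and the genes share libraries and depth.

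RefSeq promoter windows were matched for 35 of the 43 genes. CCAAT was present in 13 of the 35 and GGGCGG in 21, beside 33.8% and 32.7% of all windows, and TATAAA in 5 and TGANTCA, the AP-1 motif, in 1, beside 12.4% and 6.75%. The window of Col16a1, the FACIT that led by FPKM in cWT_SOD1, lies at chr4:130047590-130047839 of GRCm38.p6 on the plus strand and is printed as above to set it beside Col5a3.
Col16a1: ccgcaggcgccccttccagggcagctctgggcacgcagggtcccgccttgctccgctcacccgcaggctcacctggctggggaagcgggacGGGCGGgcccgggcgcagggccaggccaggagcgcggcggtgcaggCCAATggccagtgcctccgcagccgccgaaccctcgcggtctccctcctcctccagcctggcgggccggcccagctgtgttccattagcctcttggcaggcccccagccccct
It holds 1 match to CCAAT and 1 to GGGCGG, and in none of the 5 printed windows does a CCAAT match overlap a GGGCGG match. Such matches describe letters in these windows and nothing about binding.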

How the data were processed

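RNA from 16 lumbar spinal cords (4 per group) was purified with Trizol and RNeasy, selected for poly-A and made into TruSeq libraries, per the labels' protocols. The submitters' processing notes name bcl2fastq 1.8.4, TopHat2 2.0.4, Cufflinks 2.0.2 and the mm9 build. The authors deposited raw read counts per gene and FPKM values per gene, and their counting tool is not given in the sources used here. Library totals ran from 14989026 to 20892530 counts, and no pair of replicates agreed within sampling noise (mean chi-square per gene 2.79 to 38.9).

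Gene counts went into edgeR 4.0.16 under R 4.3.3 (quasi-likelihood test, TMM, default expression filter, 15426 genes, 1 fit of all libraries, Benjamini-Hochberg adjustment over all tested genes, threshold 0.05), after tests on simulated data. Alternatives were DESeq2 1.42.0, limma 3.58.1 (voom on counts, and trend on log2 of FPKM + 0.1 or + 1), other scalings and filters, covariates, and leaving out each library. A fold change on the log2(FPKM + pseudocount) scale understates the change of low genes. Standard errors are approximate, from the log2 fold change and the F statistic of its test. The 43 genes, the classes and the companion and marker lists were chosen with earlier results of these data known. Every library value is given for 12 main chains and for called genes picked by rank. Ranks took up to 4 with the highest and up to 4 with the lowest log2 fold change per comparison. For the interaction, up to 6 with the smallest p were added. Of the picked genes, Col9a3 is given as group means and SD and Col27a1 by its fold changes only. Of each list, up to 3 genes with the smallest p were taken. Overlapping genes share reads where the counting did not split them (Col9a3 with Tcfl5, Col10a1 with Nt5dc1, Col27a1 with Mir455, Col7a1 with Mir711). Promoter windows came from RefSeq and were searched on both strands.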

Additional observations from a re-analysis of the deposited data

Results flagged for a closer look

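A single library stood apart from the other 3 of its group (Dixon's criterion for 4 samples) in 12 of 164 groups examined, where chance gives about 5%. The lowest library stood apart for Col11a1 in cKO_SOD1 (replicate 4, 33.26 CPM), Col12a1 in cKO (replicate 4, 11.84 CPM), Col13a1 in cKO (replicate 2, 0.5304 CPM), Col1a1 in cWT_SOD1 (replicate 1, 30.13 CPM), Col2a1 in cKO (replicate 2, 1.856 CPM), Col2a1 in cWT_SOD1 (replicate 4, 2.386 CPM) and Col5a3 in cKO_SOD1 (replicate 4, 13.52 CPM). The highest library stood apart for Col12a1 in cKO_SOD1 (replicate 3, 41.16 CPM), Col14a1 in cKO_SOD1 (replicate 1, 2.458 CPM), Col19a1 in cWT (replicate 4, 149.5 CPM), Col24a1 in cWT_SOD1 (replicate 1, 4.796 CPM) and Col5a2 in cKO (replicate 4, 11.94 CPM).

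The transgene effect differed between cKO and cWT, by edgeR's interaction test, for 22 genes. The fibrillar genes among them had interaction log2 values of -0.99 (Col1a1), -0.39 (Col1a2), -1.36 (Col2a1), -1.63 (Col5a1), -1.24 (Col5a2), -2.37 (Col5a3), -0.59 (Col27a1) and 0.49 (Col11a2). The type IV genes had -1.17 (Col4a5) and -1.92 (Col4a6), and the transmembrane genes had -0.49 (Col23a1) and 0.68 (Col25a1). The FACIT genes had -1.29 (Col12a1), -1.26 (Col16a1), -1.89 (Col20a1), -0.77 (Col22a1), -1.02 (Col9a3) and 2.40 (Col19a1). The others were -0.63 (Col15a1), -0.86 (Col18a1), -0.67 (Col6a1) and -3.23 (Col28a1). A negative value means a lower log2 fold change with the transgene in cKO than in cWT. For Col2a1 and Col28a1 that log2 fold change was below 0 in cKO (-0.42 and -0.21, neither called).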

How the results depend on the processing

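Counts of collagens higher in cWT_SOD1 than in cWT, lower in cKO_SOD1 than in cWT_SOD1 and with a negative interaction stayed within 1.5 times their reported value under all alternatives. With 1 library left out they ran from 26 to 30, 21 to 26 and 17 to 22, in that order. The 2 lower in cWT_SOD1 became 1 with DESeq2 and 1 with limma-voom. DESeq2 gave no adjusted p for Col19a1, so its count there is a missing test and not a result for that gene. With limma on log2(FPKM + 0.1) and no filter, the collagens higher in cKO_SOD1 than in cKO fell from 6 to 3 and the fibrillar ones to 1, those higher in cKO_SOD1 than in cWT_SOD1 went from 2 to 4, and the fibrillar gene with a positive interaction went from 1 to 0. The type IV gene higher in cKO_SOD1 than in cKO went from 1 to 0 in each of the 3 FPKM fits. The 2 transmembrane genes lower in cKO_SOD1 than in cWT_SOD1 became 1 with no filter on counts, DESeq2, limma-voom, only the 2 groups compared, the replicate block and sex as a covariate (2 females and 2 males per group, read from Xist and Y-linked counts).

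Leaving out 1 library gave 2 to 8 collagens, 0 to 4 fibrillar genes and 0 to 1 type IV genes higher in cKO_SOD1 than in cKO. It gave 1 to 2 transmembrane genes higher in cWT_SOD1 than in cWT (1 without cWT_SOD1 replicate 2) and 1 to 2 lower in cKO_SOD1 than in cWT_SOD1 (1 without cWT_SOD1 replicates 2 or 4, cKO replicates 1, 3 or 4, or cKO_SOD1 replicates 1, 3 or 4). Fibrillar genes with a positive interaction numbered 0 to 1 (0 without cWT replicates 1 or 2 or cWT_SOD1 replicate 2).

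Some values that were not called changed sign, most of them near 0. For Col19a1 between cKO_SOD1 and cKO they were 0.013 (FPKM + 0.1, with and without the filter), 0.007 (FPKM + 1) and 0.027 (replicate block), and -0.125 to 0.04 with 1 library left out. Between cKO and cWT Col19a1 went from -1.47 to 0.145, 0.145 and 0.094 on the same FPKM settings and ran from -1.772 to 0.069 with 1 library left out (0.069 without cWT replicate 4). The values for Col13a1 were -0.002 (FPKM + 0.1, with and without the filter) and -0.084 to 0.244 with 1 library left out. With 1 library left out, log2 fold changes between cKO_SOD1 and cKO ran from -0.061 to 0.298 (Col13a1), -0.173 to 0.027 (Col4a1), -0.037 to 0.113 (Col4a2) and -0.077 to 0.186 (Col5a1). Between cKO and cWT they ran from -0.059 to 0.156 (Col1a1), -0.081 to 0.013 (Col1a2) and -0.076 to 0.117 (Col3a1), and for Col4a2 from -0.053 to 0.124 between cWT_SOD1 and cWT and from -0.091 to 0.084 in the interaction. Over all single-gene and class values and alternatives, 2086 kept their direction and call, 74 lost the call, 25 gained it, 40 changed sign and 2 others moved. The cause of these changes was not tested.

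Same-numbered libraries of different groups correlated at r from -0.253 to 0.312, and 7 of 16 correlated best with their own number, so the numbers were not taken to pair the samples. With the replicate block, 27 collagens were higher in cWT_SOD1 than in cWT, 7 were higher in cKO_SOD1 than in cKO, and 23 were lower in cKO_SOD1 than in cWT_SOD1.

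Low depth limits Col10a1 and Col17a1, with at most 3 and 8 counts in a library, and counts per gene do not separate isoforms. With types XV, XVIII and VII added to type IV, the median log2 fold change of the basement membrane genes between cWT_SOD1 and cWT went from 0.51 to 0.96.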
